A study of Mus musculus with 18 samples.

Results

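Loss of Kat7 changed 2613 genes by a different amount in the 2 sorted fractions of medullary thymic epithelium. Of these, 382 moved in opposite directions by the tests of both fractions. The comparison asked, for each gene, whether the difference between Kat7 knockout (KO) and wildtype (WT) cells was the same in medullary thymic epithelial cells with high surface MHC class II (mTEChi) as in those with low surface MHC class II (mTEClo). The quantity reported is the interaction, which is the log2 fold change of KO over WT in mTEChi minus the same fold change in mTEClo. A positive interaction means that the KO effect was more positive in mTEChi, and a negative one that it was more negative in mTEChi. The 12 libraries named mTEChi or mTEClo among the 18 libraries of the series were compared, and 19364 of 27179 listed genes were tested. The other 6 libraries, of cortical thymic epithelial cells, were in the same fit and so shared the filter, the scaling and the estimate of spread. The groups were KO mTEChi, WT mTEChi, KO mTEClo and WT mTEClo, with 3 libraries in each. All were thymic epithelial cells of C57BL/6 mice. Pools of mice 4, 5 and 6 were KO and pools 1, 2 and 3 were WT, and each pool gave 1 mTEChi and 1 mTEClo library, so the 2 fractions of a pool came from the same animals. Because the libraries are of pooled animals, the spread within a group is the spread between pools. The sources used here give neither the deleted part of Kat7, nor the cells in which it was deleted, nor the ages of the mice, nor the days of sorting and sequencing. Any batch of the KO pools against the WT pools and the genotype cannot be told apart.

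KAT7, also called HBO1, is a histone acetyltransferase that works in complexes with BRPF or JADE scaffold proteins and acetylates the tails of histones H3 and H4. Medullary thymic epithelium presents self-antigens to developing T cells. In it, mTEClo hold immature cells that make the chemokine CCL21, together with differentiated cells that resemble peripheral types such as tuft, neuroendocrine and ciliated cells, while mTEChi hold the mature cells in which the transcriptional regulator AIRE turns on tissue-restricted genes. As the fractions were gated on MHC class II at the cell surface, a change of a transcript within cells and a shift of cells between fractions cannot be told apart in bulk RNA, nor can fewer cells of a type and less RNA per cell.

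Complementary DNA had been amplified from little RNA (SMART-Seq v4), fragmented with Nextera XT and read from both ends on an Illumina NextSeq, without a record of strand. Library totals were 6802970 to 13373646 counts in KO mTEChi, 3554089 to 8445355 in WT mTEChi, 14411708 to 19356071 in KO mTEClo and 6565309 to 9815559 in WT mTEClo, so every WT mTEClo library was shallower than every KO mTEClo library, while the totals of KO and WT mTEChi overlapped. Levels are given as CPM, the counts per 1e+06 counts of the TMM-scaled library. A fold change or interaction is on the log2 scale with its standard error (SE), and "called" means an adjusted p below 0.05 in edgeR's quasi-likelihood test with Benjamini-Hochberg adjustment over all 19364 genes. The epithelial marker Epcam was at 1377 to 1477 CPM in KO mTEChi, 1158 to 1214 in WT mTEChi, 1444 to 1575 in KO mTEClo and 1166 to 1288 in WT mTEClo. Aire was at 633 to 703 CPM in KO mTEChi and 1096 to 1229 CPM in WT mTEChi, against 24.8 to 55.1 CPM in KO mTEClo and 26.2 to 59.3 CPM in WT mTEClo, so the fractions matched their labels in both genotypes. The interaction of Aire was -0.88 (SE 0.46, edgeR adjusted p = 0.228).

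Kat7 itself (chr11:95271853-95310246, GRCm38.p6) had 2.63, 2.88 and 1.47 CPM in KO mTEChi against 59.0, 55.7 and 47.9 CPM in WT mTEChi. It had 1.96, 0.958 and 0.765 CPM in KO mTEClo against 57.6, 38.6 and 43.1 CPM in WT mTEClo. KO and WT libraries were far apart in both fractions. The log2 fold changes were -4.47 in mTEChi and -5.28 in mTEClo, and the interaction of 0.81 (SE 0.42) was not called by edgeR (adjusted p = 0.233). Among the 10 tested genes of KAT7 complexes, the interaction was called only for Jade2, at -0.85 (edgeR adjusted p = 0.0267), and that call was lost when any single library other than KO mTEChi 5, WT mTEChi 2 or KO mTEClo 5 was left out. With the pools as a block, 1 positive and 2 negative interactions were called among the 10. In the main fit, 6.72% of all genes had a positive and 6.78% a negative interaction.

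Of the 2613 called genes, 13.5% of those tested, 1301 (6.72%) had a positive interaction and 1312 (6.78%) a negative one. Their median absolute interaction was 1.23, the smallest was 0.40, and 1630 had an absolute interaction of at least 1. At an unadjusted p below 0.05 there were 5227 genes, 2447 positive and 2780 negative. The KO effect was called higher for 17.1% and lower for 19.3% of all genes in mTEChi. In mTEClo it was called higher for 18.9% and lower for 15.8%. These shares are the background for the counts in gene lists below. The split of calls moved with the processing. Fitted on the 12 mTEC libraries alone, which shifted the median interaction of all shared genes by 0.126, it was 2482 positive and 1635 negative, and with every library thinned to the smallest total it was 659 positive and 395 negative. The median interaction of all genes was -0.07.

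The KO effect was called in both fractions for 3445 genes, of which 3063 moved the same way and 382 (1.97% of the genes tested) moved in opposite directions. Of these 382, 188 (0.971%) were higher in KO mTEChi and lower in KO mTEClo, and 194 (1%) were lower in KO mTEChi and higher in KO mTEClo. Without WT mTEChi replicate 3 the first number was 120. The remaining called genes had a KO effect called in mTEChi alone (860), in mTEClo alone (1023), in neither (56), or in both in the same direction (292). The last set was made of 59 genes that rose more in mTEChi, 70 that rose more in mTEClo, 38 that fell more in mTEChi and 125 that fell more in mTEClo. A missing call in a fraction does not show that a gene was unchanged there. By sign alone, 1715 of the 2613 genes had opposite effects in the 2 fractions. The opposite classes were formed from these values, so the levels below describe them and carry no further test.

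**Figure D1:**
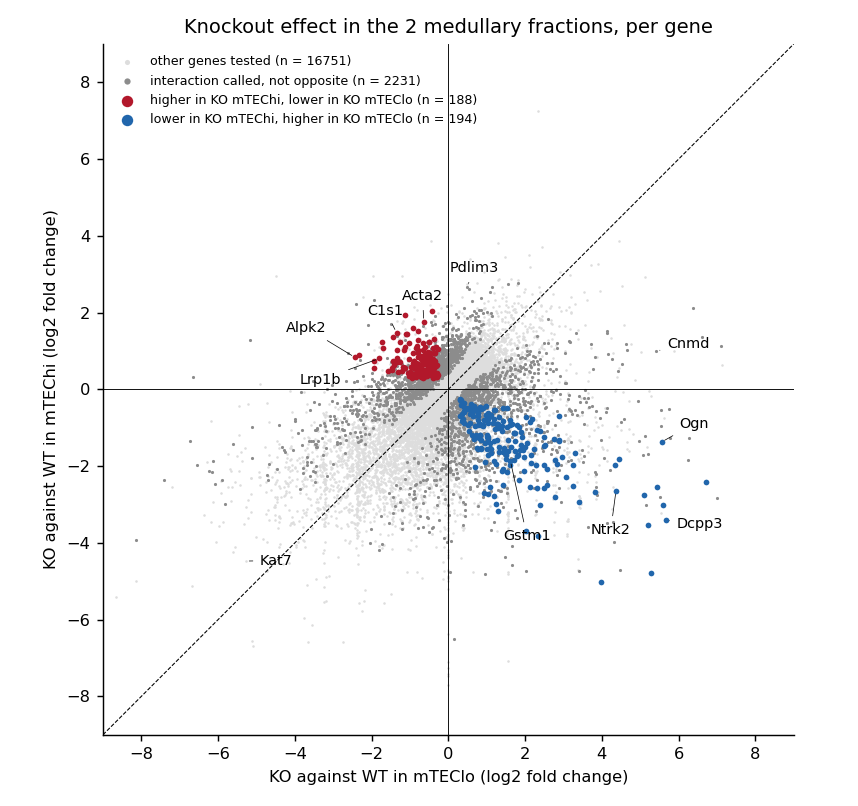
Each point is a gene, with the KO effect (log2 fold change of KO over WT) in mTEClo on the horizontal axis and in mTEChi on the vertical axis, and the dashed line marks equal effects. The 188 red genes (higher in KO mTEChi, lower in KO mTEClo) lie in the upper left, and the 194 blue genes (lower in KO mTEChi, higher in KO mTEClo) lie in the lower right and reach further from the origin.

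By the medians of their group means, the 188 genes that were higher in KO mTEChi and lower in KO mTEClo differed less between fractions in KO than in WT. This did not hold for every gene. For some members, such as Des and Lrp1b below, the fractions were further apart in KO. Only 8 of the 188 had a higher WT mean in mTEChi than in mTEClo, so the definition of the class itself favours a smaller gap in KO. The median over the 188 genes of the group mean was 48.1 CPM in KO mTEChi, 29.8 in WT mTEChi, 56.6 in KO mTEClo and 88.8 in WT mTEClo. Over all genes tested the same medians were 14.1, 15.4, 14.6 and 14.6 CPM. Their median KO effect was 0.64 in mTEChi and -0.61 in mTEClo, and their interactions ran from 0.62 to 3.27 with a median of 1.31. KO and WT libraries did not overlap in either fraction for 179 of the 188, against 29.9% of all genes tested. As the class required a called KO effect in both fractions of these libraries, this separation follows largely from the choice.

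Complement proteases stood among the largest of these. C1s1 encodes the C1s protease of the first complement component. It had 35.5, 44.3 and 46.8 CPM in KO mTEChi against 16.1, 16.2 and 13.4 CPM in WT mTEChi, and 59.3, 52.8 and 61.4 CPM in KO mTEClo against 151, 152 and 139 CPM in WT mTEClo. All KO mTEChi libraries were above all WT mTEChi libraries, and all KO mTEClo libraries were well below all WT mTEClo libraries. The interaction was 2.83 (SE 0.18, edgeR adjusted p = 5.59e-09), made of a KO effect of 1.48 in mTEChi and -1.35 in mTEClo. Its neighbours C1ra and C1rl, which encode the partner protease C1r and a related protein, showed the same pattern with interactions of 1.81 and 2.52. The 3 genes lie next to each other on chromosome 6 in GRCm38.p6 (C1rl at chr6:124493113-124510643, C1ra at chr6:124512621-124523440 and C1s1 at chr6:124530344-124542392). C1ra was chosen after its values were seen. Crp, the acute-phase C-reactive protein, was also of this class, with means of 92.5 ± 8.16 CPM in KO mTEChi, 64.8 ± 5.26 in WT mTEChi, 55.3 ± 2.88 in KO mTEClo and 152 ± 8.05 in WT mTEClo (SD, n = 3 each).

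Acta2, Des and Myog, genes of contractile cells, were also of this class. Acta2, smooth muscle actin, had 282, 227 and 243 CPM in KO mTEChi against 80.0, 72.0 and 70.6 CPM in WT mTEChi. In mTEClo it had 336, 257 and 239 CPM in KO and 482, 350.2 and 464 CPM in WT. KO mTEChi libraries were about as high as KO mTEClo libraries, while WT mTEChi libraries were the lowest of all. The interaction was 2.40 (SE 0.20, edgeR adjusted p = 2.07e-07). Des, the muscle intermediate filament desmin, had 95.4, 89.8 and 99.7 CPM in KO mTEChi against 35.7, 43.0 and 30.8 CPM in WT mTEChi, and 17.2, 14.3 and 11.9 CPM in KO mTEClo against 44.2, 39.1 and 35.0 CPM in WT mTEClo. WT levels of Des were alike in the 2 fractions, and KO levels were not. Its interaction was 2.83 (SE 0.28, edgeR adjusted p = 1.63e-06). Myog, the muscle differentiation factor myogenin, averaged 46.3 ± 11.2 CPM in KO mTEChi and 15.2 ± 1.45 in WT mTEChi, and 15.0 ± 0.824 CPM in KO mTEClo and 28.5 ± 5.42 in WT mTEClo (SD, n = 3 each). Its interaction was 2.54 (SE 0.29, edgeR adjusted p = 7.65e-06). The muscle list that holds Des and Myog was not of one direction. Of its 21 tested genes, those 2 had a positive interaction and 4 a negative one (Myh8 at -9.14, Myh3 at -4.10, Myl4 at -1.68 and Tnnt2 at -1.60), with a median of 0.13, and at the smallest total depth the list had no negative call. The background was 6.72% positive and 6.78% negative over all genes.

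Col6a1 and Col6a2 encode chains of type VI collagen and are close together on chromosome 10. Col6a1 had 80.2, 71.6 and 98.6 CPM in KO mTEChi against 35.7, 47.0 and 33.4 CPM in WT mTEChi, and 280.0, 232 and 244 CPM in KO mTEClo against 602, 581 and 473 CPM in WT mTEClo. The KO and WT libraries were apart in each fraction, and the interaction was 2.23 (SE 0.21, edgeR adjusted p = 8.54e-07). Col6a2 had an interaction of 2.03, and Vim, the filament protein vimentin, one of 2.04. Col1a1, the main chain of type I collagen, was of the other class. It averaged 11.0 ± 2.79 CPM in KO mTEChi and 27.3 ± 1.99 in WT mTEChi, against 6.44 ± 3.79 CPM in KO mTEClo and 2.67 ± 0.739 in WT mTEClo (SD, n = 3 each), with an interaction of -2.58 (SE 0.52, edgeR adjusted p = 0.00193). Tagln, an actin-binding protein of smooth muscle, averaged 28.6 ± 3.53 CPM in KO mTEChi and 31.0 ± 1.21 in WT mTEChi, against 50.6 ± 5.23 CPM in KO mTEClo and 394 ± 50.6 in WT mTEClo. Its interaction of 2.84 came from mTEClo, where its fold change was -2.96.

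Several of these genes are markers of mural cells and fibroblasts, which the sorted fractions could hold. Of 14 tested markers of those cells, 6 had a positive and 2 a negative interaction, while the median was -0.67, so the count and the median differ in sign. The background was 6.72% positive and 6.78% negative over all genes, so both shares were above it. Their summed level was 653 to 757 CPM in KO mTEChi, 415 to 434 in WT mTEChi, 765 to 883 in KO mTEClo and 1180 to 1336 in WT mTEClo, and none of the 14 was at 0 in a whole group. The positive ones were Acta2, Dcn, Lum, Myh11, Rgs5 and Tagln, and the negative ones Col1a1 and Col1a2. Rgs5, a pericyte gene, averaged 36.4 ± 7.19 CPM in KO mTEChi and 73.5 ± 5.95 in WT mTEChi, against 11.0 ± 0.866 CPM in KO mTEClo and 85.5 ± 4.45 in WT mTEClo (SD, n = 3 each), and so was lower in KO in both fractions. The part of such cells in these results was not tested.

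Receptors and transcription factors of this class, chosen after their values were seen, included Osmr, the oncostatin M receptor, with an interaction of 2.18, Fgfr2, the epithelial receptor of fibroblast growth factors, with 1.79, and Ifngr1, the ligand-binding chain of the interferon gamma receptor, with 0.98. Osmr had 49.2, 50.7 and 60.5 CPM in KO mTEChi against 23.5, 29.1 and 24.7 CPM in WT mTEChi, and 92.8, 78.6 and 87.7 CPM in KO mTEClo against 172, 199 and 203 CPM in WT mTEClo. Among transcription factors, Runx1 had an interaction of 1.46, Snai2 of 1.48 and Sox4 of 1.07. Lrp1b, a large receptor of the low-density lipoprotein receptor family, averaged 81.8 ± 6.39 CPM in KO mTEChi and 46.7 ± 1.22 in WT mTEChi, against 7.29 ± 1.60 CPM in KO mTEClo and 25.2 ± 4.44 in WT mTEClo (SD, n = 3 each), and its interaction was 2.60 (SE 0.24, edgeR adjusted p = 5.92e-07). Alpk2, an atypical kinase, had the largest interaction of the class, 3.27 (SE 0.45, edgeR adjusted p = 5.35e-05). It had 14.6, 13.1 and 13.1 CPM in KO mTEChi against 9.14, 7.13 and 6.91 CPM in WT mTEChi, and 4.46, 1.69 and 2.91 CPM in KO mTEClo against 16.8, 16.3 and 15.6 CPM in WT mTEClo. The other named genes of the class were Sectm1a (2.79), Cpxm2 (2.66), Kremen2 (2.49), Prss33 (2.53), Lag3 (2.95), which encodes an inhibitory receptor best known on T cells, and the bitter taste receptor gene Tas2r109 (3.07), whose reads could be shared with close paralogs. At the smallest total depth, the calls of Alpk2, C1rl, Lag3 and Tas2r109 were lost.

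**Figure D2:**
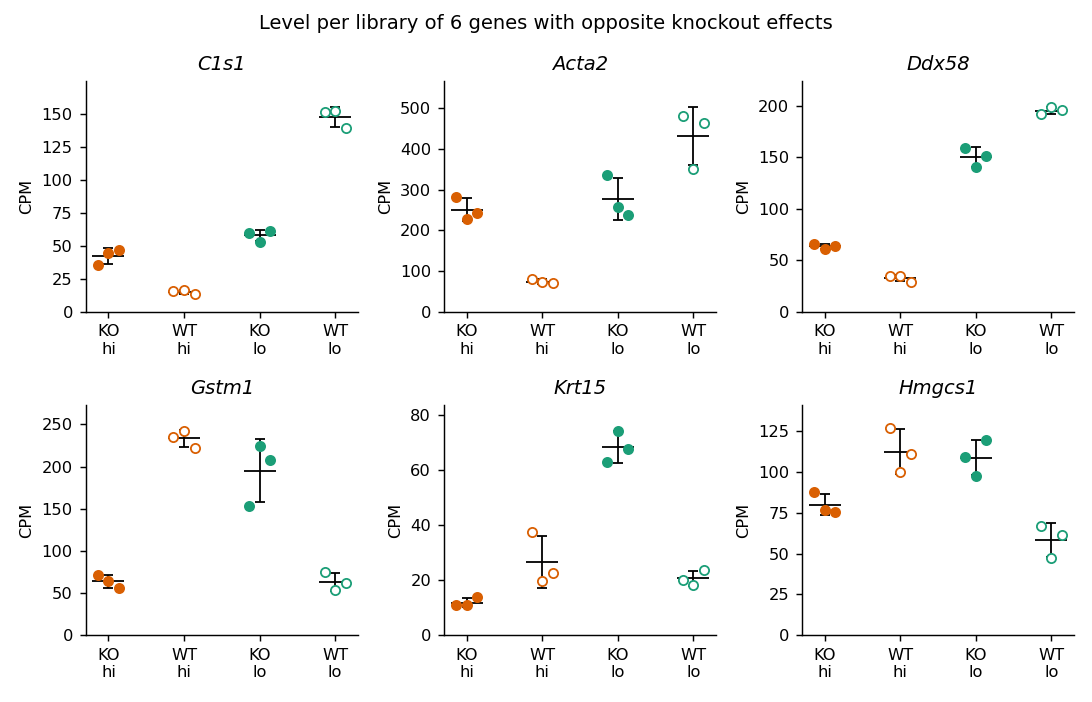
CPM in each library (points), with the group mean and SD (lines, n = 3 libraries), for 3 genes that were higher in KO mTEChi and lower in KO mTEClo (top) and 3 with the opposite pattern (bottom). Filled points are KO and open points WT, and hi and lo stand for mTEChi and mTEClo. For C1s1 the KO mTEChi mean was 42.2 CPM against 15.2 in WT mTEChi, and the KO mTEClo mean was 57.8 CPM against 147 in WT mTEClo.

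Interferon-stimulated genes had positive interactions. Interferons act through transcription factors that bind interferon-stimulated response elements upstream of genes for antiviral and MHC-related proteins, and medullary epithelium is known to express many of these genes without infection. The promoters of 3 of the 7 opposite genes among the 45 interferon-stimulated genes tested are printed to show where that element lies. These 3 promoters are examples that hold the element, and do not show how often promoters of the class hold it. They cover 250 bases before to 50 bases after the start site in RefSeq, GRCm38.p6, 5′ to 3′ on the strand of the gene. The element was searched as GAAA, then 2 bases of any kind, then GAAA again, on both strands. Capitals mark its matches, and overlapping matches run together. The matches of Irgm1 and Gbp3 lie before the start site, and that of Ddx58 lies just after it.
Irgm1, chr11:48871371-48871670, minus strand: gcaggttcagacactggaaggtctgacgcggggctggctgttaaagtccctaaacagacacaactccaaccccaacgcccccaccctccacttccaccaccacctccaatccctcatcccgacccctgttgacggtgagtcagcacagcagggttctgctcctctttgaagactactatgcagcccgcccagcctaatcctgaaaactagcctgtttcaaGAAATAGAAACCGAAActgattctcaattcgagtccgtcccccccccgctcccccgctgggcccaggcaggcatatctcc
Gbp3, chr3:142559794-142560093, plus strand, the first of 2 listed: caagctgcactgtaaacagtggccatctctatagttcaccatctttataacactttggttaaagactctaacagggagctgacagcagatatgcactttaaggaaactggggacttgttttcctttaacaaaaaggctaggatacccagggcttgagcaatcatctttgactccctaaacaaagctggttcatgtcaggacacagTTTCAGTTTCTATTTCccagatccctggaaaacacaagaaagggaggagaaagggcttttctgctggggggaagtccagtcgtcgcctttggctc
Ddx58, chr4:40239776-40240075, minus strand: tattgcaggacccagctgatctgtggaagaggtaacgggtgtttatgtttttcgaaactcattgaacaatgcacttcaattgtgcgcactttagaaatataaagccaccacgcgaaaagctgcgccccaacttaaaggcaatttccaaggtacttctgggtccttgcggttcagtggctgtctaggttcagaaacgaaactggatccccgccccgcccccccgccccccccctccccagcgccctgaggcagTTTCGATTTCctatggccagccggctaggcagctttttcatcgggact

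These letters occurred in 3.12% of the 14424 promoters that could be matched to tested genes (450 promoters). A promoter was matched for 17 of the 25 interferon genes called, which is too few for a comparison of shares between gene sets, so none is given. A match describes the letters and not binding.

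Of 45 interferon-stimulated genes tested, 25 had a positive interaction and none a negative one in edgeR or in DESeq2. At an unadjusted p below 0.05, 33 were positive and 0 negative. The background was 6.72% positive and 6.78% negative over all genes. The median interaction was 0.76. In mTEChi 21 of the genes were higher and 4 lower in KO, and in mTEClo 1 was higher and 24 lower, and 7 genes were of the opposite class. The background was 17.1% higher and 19.3% lower in mTEChi, and 18.9% higher and 15.8% lower in mTEClo. The median log2 ratio of mTEChi over mTEClo over the list was -0.73, -0.64 and -0.64 in KO pools 4, 5 and 6, against -1.28, -1.54 and -1.52 in WT pools 1, 2 and 3. Each KO pool had thus a smaller gap between its fractions than each WT pool.

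Ddx58, which encodes the viral RNA sensor RIG-I, had 65.9, 60.7 and 63.7 CPM in KO mTEChi against 34.9, 34.5 and 29.0 CPM in WT mTEChi, and 159, 141 and 151 CPM in KO mTEClo against 192, 199 and 195 CPM in WT mTEClo. The groups did not overlap in either fraction, and the interaction was 1.33 (SE 0.14, edgeR adjusted p = 3.86e-06). Irgm1, an interferon-induced GTPase of membrane defence, had 178, 159 and 158 CPM in KO mTEChi against 101, 109 and 97.6 CPM in WT mTEChi, and 272, 248 and 256 CPM in KO mTEClo against 366, 349 and 289.6 CPM in WT mTEClo, with an interaction of 1.06 (SE 0.15, edgeR adjusted p = 5.96e-05). Gbp3, a guanylate-binding protein, had 58.1, 67.6 and 63.0 CPM in KO mTEChi against 52.6, 45.6 and 43.0 CPM in WT mTEChi, and 80.5, 67.4 and 79.0 CPM in KO mTEClo against 170.4, 146 and 133 CPM in WT mTEClo, with an interaction of 1.41 (SE 0.19, edgeR adjusted p = 3.81e-05). In mTEChi the largest change of these 3 genes was that of Ddx58, and in mTEClo that of Gbp3. Mx1, an antiviral GTPase, Rtp4, Stat2 and Iigp1 were the other opposite genes of the list, with interactions of 1.53, 1.38, 0.97 and 1.04.

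Other called members had a KO effect called in 1 fraction alone. Irf9, a transcription factor of the interferon response, Gbp2 and Ifit3 rose in KO mTEChi without a call in mTEClo, and their interactions were 0.85, 1.31 and 1.23. The reads of Ifit3 may be shared with its near copy Ifit3b. Zbp1, a sensor of Z-form nucleic acid, showed the reverse, with 59.2, 63.7 and 50.5 CPM in KO mTEClo against 122, 127 and 126 CPM in WT mTEClo and no call in mTEChi, and an interaction of 1.05. Rsad2, Isg15 and Cxcl10 were not called, with interactions of -0.02, 0.53 and 0.33, nor was Irf7, at 0.71 (edgeR adjusted p = 0.0633). Across 18 alternative settings, the median of the list stayed between 0.66 and 0.89.

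**Figure D3:**
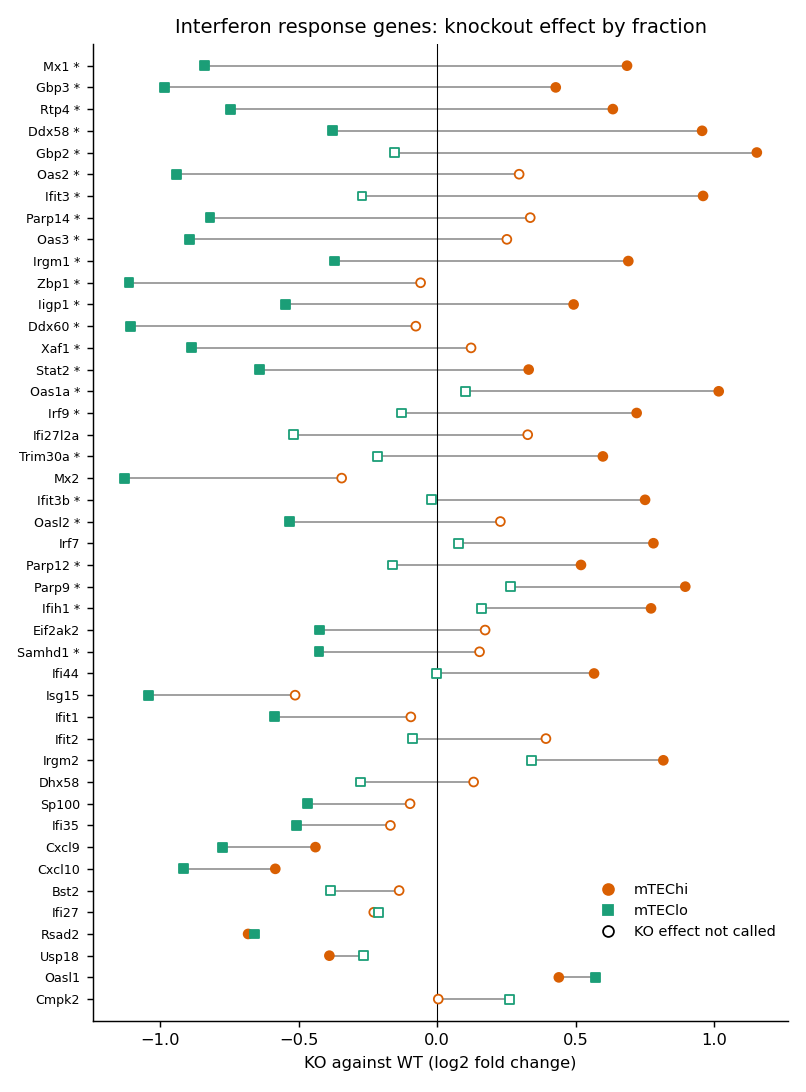
KO effect (log2 fold change of KO over WT) in mTEChi (circles) and mTEClo (squares) for 44 of the 45 interferon-stimulated genes, in order of the interaction, which is the distance from square to circle. Open symbols are effects that were not called, and an asterisk marks one of the 24 called interactions among them. The circles lie to the right of the squares for 39 of the 44 genes.

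Markers of immature, CCL21-producing mTEC also differed less between fractions in KO by the median of the list. Of 17 tested, 10 had a positive and 1 a negative interaction, with a median of 0.78. The background was 6.72% positive and 6.78% negative over all genes. The median log2 ratio of mTEChi over mTEClo was -0.91, -0.96 and -0.67 in the KO pools against -1.44, -1.51 and -1.43 in the WT pools. Ccl21a, the chemokine that draws positively selected thymocytes to the medulla, had 66.2, 91.7 and 98.2 CPM in KO mTEChi against 47.6, 56.0 and 41.6 CPM in WT mTEChi, and 303, 691 and 549 CPM in KO mTEClo against 1528, 1576 and 1535 CPM in WT mTEClo. Its interaction was 2.40 (SE 0.45, edgeR adjusted p = 0.000988), and its reads could be shared with near-identical Ccl21 copies. The KO mTEClo pools were far below WT and spread widely, and the difference in mTEChi missed the threshold (edgeR adjusted p = 0.0546).

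The keratins of basal epithelium did not all behave alike. Krt5 had 407, 479 and 625 CPM in KO mTEChi against 256, 201 and 181 CPM in WT mTEChi, and 957, 971 and 848 CPM in KO mTEClo against 1194, 1232 and 1100.0 CPM in WT mTEClo, with an interaction of 1.59 (SE 0.23, edgeR adjusted p = 7.38e-05). Krt14, its dimer partner, had 1148, 969 and 1143 CPM in KO mTEChi against 455, 477 and 409 CPM in WT mTEChi, and overlapping levels in mTEClo (1636 to 1951 CPM in KO and 1631 to 1845 CPM in WT), with an interaction of 1.23. Krt15 went the other way, with 11.0, 10.9 and 13.8 CPM in KO mTEChi against 37.4, 19.8 and 22.5 CPM in WT mTEChi, and 62.7, 74.2 and 67.6 CPM in KO mTEClo against 20.02, 18.3 and 23.6 CPM in WT mTEClo. It was the only member of the list in an opposite class, with an interaction of -2.85 (SE 0.48, edgeR adjusted p = 0.000385).

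For other members the interaction came from a large drop in KO mTEClo. Lifr, the receptor of leukaemia inhibitory factor, had 51.4, 47.8 and 42.1 CPM in KO mTEChi against 59.3, 81.6 and 61.6 CPM in WT mTEChi, and 126, 107 and 135 CPM in KO mTEClo against 753, 705 and 705 CPM in WT mTEClo, with an interaction of 2.03 (SE 0.21, edgeR adjusted p = 2.22e-06). Trp63, the basal epithelial factor p63, and Itga6, a laminin receptor chain, had interactions of 0.99 and 1.03, with calls in mTEClo alone.

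The 194 genes that were lower in KO mTEChi and higher in KO mTEClo were expressed at lower levels. The median of their group means was 5.97 CPM in KO mTEChi, 14.5 in WT mTEChi, 12.1 in KO mTEClo and 4.68 in WT mTEClo. The median KO effect was -1.26 in mTEChi and 1.28 in mTEClo, and the interactions ran from -10.05 to -0.56 with a median of -2.64. KO and WT libraries were apart in both fractions for 182 of the 194, against 29.9% of all genes tested. This too follows largely from the calls in both fractions that the class required.

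Glutathione S-transferases, which conjugate glutathione to reactive compounds, were prominent. This family was chosen after its values were seen. Of 23 members tested, 14 had a negative interaction and the median was -1.68, and 6 were of the opposite class (Gsta2, Gsta3, Gstm1, Gstm7, Gsto1 and Gstt1). Over all genes tested, 6.78% had a negative interaction and 1% were of this class. Gstm1 had 71.8, 64.8 and 56.2 CPM in KO mTEChi against 235, 243 and 222 CPM in WT mTEChi, and 153, 225 and 208 CPM in KO mTEClo against 74.7, 53.9 and 62.3 CPM in WT mTEClo. KO mTEChi sat at the level of WT mTEClo, and KO mTEClo near that of WT mTEChi. The interaction was -3.47 (SE 0.22, edgeR adjusted p = 5.59e-09). Gsta3 and Gstt1 had interactions of -3.86 and -1.79. Paralogs of this family are similar in sequence, so their reads could be split between members.

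Among the genes of this class with a mean of at least 5 CPM in a group, several with the largest negative values encode secreted proteins. Dcpp3, a salivary secretory protein gene on chromosome 17, had 1.91, 3.04 and 3.83 CPM in KO mTEChi against 29.1, 30.8 and 32.9 CPM in WT mTEChi, and 6.83, 16.7 and 34.6 CPM in KO mTEClo against 0.204, 0.389 and 0.595 CPM in WT mTEClo. Its interaction was -9.08 (SE 0.79, edgeR adjusted p = 3.82e-07), and Dcpp2, its near copy 17 kilobases away, had -6.51. Ogn, the matrix proteoglycan osteoglycin, had 2.03, 2.20 and 1.32 CPM in KO mTEChi against 4.98, 5.11 and 4.75 CPM in WT mTEChi, and 21.6, 19.7 and 23.5 CPM in KO mTEClo against 0.715, 0.518 and 0 CPM in WT mTEClo. Its interaction was -6.93 (SE 0.49, edgeR adjusted p = 2.66e-08). Igfbp3, an insulin-like growth factor binding protein chosen after its values were seen, had 17.8, 19.0 and 13.4 CPM in KO mTEChi against 42.9, 41.7 and 38.9 CPM in WT mTEChi, and 284, 225 and 269 CPM in KO mTEClo against 49.3, 36.1 and 29.7 CPM in WT mTEClo, with an interaction of -4.03 (SE 0.29, edgeR adjusted p = 3.34e-08). Of these genes Igfbp3 had the highest counts, and its KO mTEClo libraries were above all others.

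A further 8 genes of this class averaged 11.0 CPM or less in every group. They were Ntrk2, a neurotrophin receptor (-7.01), Unc13c, a synaptic vesicle priming protein (-6.17), Sult1e1, an oestrogen sulfotransferase (-5.57), Gcm2, the parathyroid transcription factor (-5.36), Capn8, a gastric calpain (-5.07), Nell1 (-4.94), Itih1, a plasma protein of the liver (-4.72), and Wfdc12 (-4.65). At the smallest total depth, the calls of Unc13c, Sult1e1, Nell1 and Itih1 were lost. Unc13c and Sult1e1 each had reads in only 1 WT mTEClo library, and their interactions reached -10.34 and -9.97 under an alternative. Capn8 had 1.91, 1.67 and 1.47 CPM in KO mTEChi against 7.48, 9.03 and 13.7 CPM in WT mTEChi, and 4.12, 2.93 and 2.85 CPM in KO mTEClo against 0.715, 0 and 1.04 CPM in WT mTEClo. Ces1g, a liver carboxylesterase, was detected in WT mTEClo by 1 read in the 3 libraries together, so no fold is given. It had 2.03, 1.21 and 1.62 CPM in KO mTEChi, 6.92, 7.25 and 6.24 CPM in WT mTEChi, and 0.338, 0.282 and 0.255 CPM in KO mTEClo.

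Neuroendocrine genes had negative interactions. Of 19 tested, 10 were negative and none positive in edgeR or in DESeq2, with 11 negative and 0 positive at an unadjusted p below 0.05, and the median was -1.34. In mTEChi 9 were lower in KO and none higher, while in mTEClo 8 were higher and 2 lower. Over all 19364 genes, 6.78% had a negative and 6.72% a positive interaction, and 2780 were negative at an unadjusted p below 0.05. The background was 19.3% lower in KO mTEChi, and 18.9% higher and 15.8% lower in KO mTEClo. Chga, the secretory granule protein chromogranin A, had 61.3, 38.0 and 35.9 CPM in KO mTEChi against 65.3, 60.5 and 66.8 CPM in WT mTEChi, and 1048, 1916 and 1727 CPM in KO mTEClo against 224, 159 and 150.1 CPM in WT mTEClo. The change was in mTEClo, and the interaction was -3.65 (SE 0.60, edgeR adjusted p = 0.000324). Snap25, a membrane fusion protein of neurons, was of the opposite class, with 4.30, 5.69 and 3.97 CPM in KO mTEChi against 7.20, 10.5 and 8.68 CPM in WT mTEChi, and 50.1, 52.7 and 52.6 CPM in KO mTEClo against 26.05, 18.4 and 19.8 CPM in WT mTEClo. Its interaction was -2.18 (SE 0.30, edgeR adjusted p = 5.27e-05). The granule protein gene Scg3 was of that class too, at -3.50, a call lost at the smallest total depth.

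Not all neuroendocrine genes were more abundant in mTEClo. Insm1, an early transcription factor of these cells, averaged 128 ± 20.6 CPM in KO mTEChi and 148 ± 13.4 in WT mTEChi, against 46.3 ± 1.73 CPM in KO mTEClo and 20.2 ± 1.31 in WT mTEClo (SD, n = 3 each), with an interaction of -1.39 (SE 0.23, edgeR adjusted p = 0.000359). Pth, parathyroid hormone, had 8.49, 15.9 and 10.7 CPM in KO mTEChi against 18.8, 12.5 and 11.9 CPM in WT mTEChi, and 692, 2306 and 1951 CPM in KO mTEClo against 187, 180.0 and 55.5 CPM in WT mTEClo. Its interaction was -3.76 (SE 1.14, edgeR adjusted p = 0.0324), but the adjusted p was 0.0546 in DESeq2 and 0.0575 to 0.0736 when any of 8 single libraries was left out (KO mTEChi 4 and 6, WT mTEChi 1, 2 and 3, KO mTEClo 5 and 6, and WT mTEClo 3).

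Of 25 tested genes of ciliated cells, 7 had a negative and none a positive interaction in edgeR or DESeq2 (11 and 0 at an unadjusted p below 0.05), with a median of -1.07. Over all 19364 genes, 6.78% had a negative interaction in edgeR, and 2780 were negative at an unadjusted p below 0.05. Hydin, a protein of the ciliary axoneme, had 8.61, 11.0 and 8.83 CPM in KO mTEChi and 9.41, 11.0 and 9.08 CPM in WT mTEChi, which overlapped, against 22.7, 25.6 and 23.6 CPM in KO mTEClo and 2.76, 3.76 and 4.91 CPM in WT mTEClo. Its interaction was -2.73 (SE 0.37, edgeR adjusted p = 5.33e-05). Rsph1, a radial spoke protein, reached its interaction of -1.91 through mTEChi, with 4.70 ± 1.04 CPM in KO mTEChi and 18.9 ± 2.59 in WT mTEChi, and 12.7 ± 2.61 CPM in KO mTEClo and 13.4 ± 2.03 in WT mTEClo (SD, n = 3 each). Members of 1 list thus reached the same sign by different fractions.

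Tissue-restricted antigen genes of 8 organ lists were mostly lower in KO in mTEChi. Of 165 tested, 100 were lower and 4 higher in KO mTEChi, against a background of 19.3% lower and 17.1% higher, while in mTEClo 40 were lower and 18 higher, against a background of 15.8% lower and 18.9% higher. The interaction was negative for 22 and positive for 2, with a median of -0.70, and 7 were lower in KO mTEChi and higher in KO mTEClo against 1 with the reverse pattern. Over all genes tested, 6.78% had a negative and 6.72% a positive interaction. The shares of these opposite classes over all genes were 1% and 0.971%, in the same order. Nefl, the light neurofilament, had 24.9, 20.3 and 22.4 CPM in KO mTEChi against 25.8, 30.1 and 28.3 CPM in WT mTEChi, and 138, 140.5 and 151 CPM in KO mTEClo against 39.9, 33.2 and 28.4 CPM in WT mTEClo, with an interaction of -2.41 (SE 0.26, edgeR adjusted p = 4.09e-06). Cck, the gut hormone cholecystokinin, was of the opposite class at -2.52, as was the milk protein gene Csn1s1 at -3.69, a call lost at the smallest total depth. Scgb1a1, a secretoglobin of airway club cells, had -2.26 and a KO effect called in mTEClo alone. Myeloid cell markers, which the mTEChi gate could also hold, summed to 868 to 1026 CPM in KO mTEChi, 1648 to 1705 in WT mTEChi, 119 to 147 in KO mTEClo and 141 to 163 in WT mTEClo. Of 17 tested, only Mrc1 had a called interaction (-1.80), and 2 genes were called without KO mTEChi 4, without KO mTEClo 5 or with the pools as a block. The part of such cells in the results for mTEChi was not tested.

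Of 21 tested genes of cholesterol synthesis, 7 had a negative interaction and none a positive one in edgeR, with 10 and 0 in DESeq2, 13 and 0 at an unadjusted p below 0.05, and a median of -0.53. In mTEClo 14 of them were higher in KO, and in mTEChi 4 were higher and 1 lower. The background was 6.78% negative interactions in edgeR, 18.9% higher in KO mTEClo, and 17.1% higher and 19.3% lower in KO mTEChi. Hmgcs1, the synthase before the rate-limiting reductase, had 87.5, 76.5 and 75.7 CPM in KO mTEChi against 127, 99.7 and 111 CPM in WT mTEChi, and 109, 97.5 and 119 CPM in KO mTEClo against 66.7, 47.0 and 61.3 CPM in WT mTEClo. It was the only member of the list in an opposite class, with an interaction of -1.38 (SE 0.18, edgeR adjusted p = 3.36e-05). Msmo1, a sterol oxidase, was called higher in mTEClo alone and had an interaction of -0.99, lost at the smallest total depth. The count of 7 was 3 without KO mTEChi 5, WT mTEChi 1, KO mTEClo 4 or WT mTEClo 2, and 4 without KO mTEChi 6 or WT mTEClo 3.

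Other genes moved the same way in both fractions by different amounts. Pdlim3, an actin-associated protein, had 559, 545 and 516 CPM in KO mTEChi against 86.9, 79.9 and 87.6 CPM in WT mTEChi, and 447, 463 and 378 CPM in KO mTEClo against 341, 308 and 266 CPM in WT mTEClo. Its rise was much larger in mTEChi, with an interaction of 2.18 (SE 0.18, edgeR adjusted p = 2.38e-07). Alox5, which makes leukotrienes in tuft cells, and Lgals9, galectin-9, also rose more in mTEChi, with interactions of 1.55 and 1.53. Cnmd, the cartilage protein chondromodulin, had 126, 147 and 121 CPM in KO mTEChi against 73.9, 61.9 and 62.8 CPM in WT mTEChi, and 172, 158 and 146 CPM in KO mTEClo against 4.70, 4.14 and 1.93 CPM in WT mTEClo. It rose far more in mTEClo, with an interaction of -4.42 (SE 0.26, edgeR adjusted p = 3.33e-09).

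Among the genes that fell in both, Nkain4, a partner of the sodium pump, had 5.38, 2.20 and 2.36 CPM in KO mTEChi against 16.3, 12.9 and 13.7 CPM in WT mTEChi, and 0.203, 0.620 and 0.867 CPM in KO mTEClo against 45.4, 53.9 and 36.7 CPM in WT mTEClo. It fell more in mTEClo, with an interaction of 4.13 (SE 0.54, edgeR adjusted p = 3.1e-05).

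Chemokine genes went both ways. Of 28 tested, 10 had a positive and 6 a negative interaction, with a median of 0.22. The background was 6.72% positive and 6.78% negative over all genes, so both shares were above it. The inflammatory CC chemokines Ccl11, Ccl7 and Ccl2 and the epithelial chemokine Cxcl14 were lower in KO in both fractions and fell more in mTEClo, with interactions of 2.84, 2.40, 1.69 and 3.64. Ccl11, eotaxin, had 5.50, 8.12 and 9.13 CPM in KO mTEChi against 62.6, 78.3 and 38.6 CPM in WT mTEChi, and 15.8, 18.8 and 11.2 CPM in KO mTEClo against 885, 1007 and 695 CPM in WT mTEClo. Cxcl12, which retains thymocytes through CXCR4, rose in both and more in mTEChi (1.02), while Ccl25, which attracts early T cell progenitors, rose in both and more in mTEClo (-1.22). Ccl25 averaged 1531 ± 97.4 CPM in KO mTEChi and 1058 ± 40.1 in WT mTEChi, against 363 ± 32.4 CPM in KO mTEClo and 108 ± 10.8 in WT mTEClo (SD, n = 3 each). The thymocyte growth factor Il7 averaged 139.7 ± 10.9 CPM in KO mTEChi and 172 ± 17.6 in WT mTEChi, against 124 ± 2.20 CPM in KO mTEClo and 392 ± 33.4 in WT mTEClo, an interaction of 1.36 (SE 0.17, edgeR adjusted p = 2.78e-05). Kitl, stem cell factor, rose more in mTEClo (-1.58).

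Of 16 tested MHC class II genes, 7 were lower in KO mTEChi and 12 in KO mTEClo, and 3 had a positive interaction (Ciita, Ctss and H2-Ob), with a median of 0.29. The background was 19.3% lower in KO mTEChi, 15.8% lower in KO mTEClo, and 6.72% positive and 6.78% negative interactions. H2-Ob, a modulator of peptide loading, had 40.04, 41.5 and 31.2 CPM in KO mTEChi against 149, 165 and 153 CPM in WT mTEChi, and 1.83, 0.789 and 1.12 CPM in KO mTEClo against 15.8, 15.9 and 19.6 CPM in WT mTEClo, with an interaction of 1.75 (SE 0.29, edgeR adjusted p = 0.000315). The call of H2-Ob was lost at the smallest total depth. The count of 3 was 1 without KO mTEChi 4, WT mTEChi 1 or 3, KO mTEClo 6 or WT mTEClo 3, and 5 without KO mTEClo 4, and it was 6 with the pools as a block. As surface MHC class II set the gate, levels of these genes between fractions are in part fixed by the sort. Of 19 costimulatory and checkpoint genes, Lgals9, Pdcd1lg2, Btn2a2 and Cd274 had a positive interaction and Cd80 a negative one. The count of 4 was 2 without WT mTEChi 3 or KO mTEClo 6, and the call of Cd80 was lost when any single library other than KO mTEChi 5 was left out. Pdcd1lg2, the inhibitory ligand PD-L2, averaged 28.3 ± 1.09 CPM in KO mTEChi and 59.5 ± 4.39 in WT mTEChi, against 6.35 ± 0.741 CPM in KO mTEClo and 42.0 ± 7.94 in WT mTEClo (SD, n = 3 each), with an interaction of 1.66. Of 25 genes of the NF-kB pathway, which drives mTEC maturation, Traf5 (1.42), Tnfaip3 (1.10), Bcl3 (0.99) and Map3k14 (0.88) had positive interactions and Rel had a negative one (-1.12), lost without KO mTEChi 4 or 6, WT mTEChi 1, KO mTEClo 6 or WT mTEClo 2. Map3k14 was of the opposite class, and its call was lost at the smallest total depth.

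Of 26 tuft cell genes, 23 were higher in KO mTEChi and 21 in KO mTEClo, and 7 had a positive and 1 a negative interaction with a median of 0.48. The background was 17.1% higher in KO mTEChi and 18.9% in KO mTEClo, and 6.72% positive and 6.78% negative interactions. Gnb3 and Gnat3, subunits of the G protein of taste signalling, had interactions of 0.88 and 0.97. The 7 became 4 without WT mTEChi 3. None of 40 ribosomal protein genes had a called interaction in edgeR or in DESeq2, 2 had an unadjusted p below 0.05, 2 were called with the pools as a block, and 14 were lower in KO in each fraction, with a median interaction of -0.03. Of 38 genes of oxidative phosphorylation, only Uqcrfs1 (-0.49) was called, with a median of -0.30. The number called was 3 in DESeq2, 4 with the pools as a block, 4 without KO mTEClo 4, 2 without KO mTEChi 5, and 0 without KO mTEChi 6, WT mTEChi 1 or 3, KO mTEClo 5 or 6, or WT mTEClo 2. Thymocyte markers summed to 183 to 209 CPM in KO mTEChi, 177 to 219 in WT mTEChi, 104 to 129 in KO mTEClo and 73.2 to 89.5 in WT mTEClo. The share of counts from 15 mitochondrial genes was 1.15% ± 0.220 in KO mTEChi, 1.50% ± 0.177 in WT mTEChi, 1.51% ± 0.146 in KO mTEClo and 2.48% ± 0.484 in WT mTEClo (SD, n = 3 each), so it was highest in WT mTEClo. The share of Rn45s, a ribosomal RNA precursor, was 0.324% ± 0.0447 in KO mTEChi, 0.563% ± 0.179 in WT mTEChi, 0.359% ± 0.0568 in KO mTEClo and 1.11% ± 0.128 in WT mTEClo. The share of Lars2, a mitochondrial leucyl-tRNA synthetase gene, was 1.40% ± 0.0831 in KO mTEChi, 1.99% ± 0.233 in WT mTEChi, 1.23% ± 0.213 in KO mTEClo and 3.04% ± 0.680 in WT mTEClo.

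Immediate early and heat shock genes, which respond to the dissociation of tissue, were also highest in WT mTEClo. The 22 genes of that list summed to 6973 to 9939 CPM in KO mTEChi, 8279 to 10147 in WT mTEChi, 15303 to 17273 in KO mTEClo and 23467 to 29052 in WT mTEClo. Fos, Hspa1a, Hspa1b and Hspb1 had a positive interaction and none a negative one, with a median of 0.47. These 4 were 18.2% of the list, against 6.72% positive and 6.78% negative over all genes. The count of 4 was 9 with the pools as a block, 8 with the 12 mTEC libraries alone, 2 without WT mTEChi 2, KO mTEClo 4, 5 or 6, or WT mTEClo 3, and 1 without KO mTEChi 6, WT mTEChi 3 or WT mTEClo 2. The part of these measures of RNA quality and handling in the results, those on interferon-stimulated genes included, was not tested.

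Genes of the G2 and M phases of the cell cycle all had an interaction below 0, with a median of -0.66, although of the 29 tested only Kif11, a mitotic spindle motor, was called (-1.37), with 9 negative and 0 positive at an unadjusted p below 0.05. In mTEChi 7 were lower in KO and none higher, and in mTEClo 5 were higher and none lower. The background was 19.3% lower and 17.1% higher in mTEChi, and 18.9% higher and 15.8% lower in mTEClo. The 1 called interaction was 3.45% of the list, against 6.78% negative over all genes. The number called was 5 with the pools as a block, 2 without KO mTEClo 6 or WT mTEClo 3, and 0 without KO mTEChi 6, WT mTEChi 1, or KO mTEClo 4 or 5.

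Keratinocyte genes mostly had an interaction below 0, and cortical genes went both ways. Of 21 keratinocyte genes, 4 were called negative and 1 positive, with a median of -0.82, and the interaction was above 0 for 4. The background for the lists of this paragraph was 6.78% negative and 6.72% positive over all genes. Sprr1a, a precursor of the cornified envelope, averaged 149 ± 41.5 CPM in KO mTEChi and 144 ± 4.77 in WT mTEChi, against 226 ± 21.8 CPM in KO mTEClo and 83.6 ± 4.45 in WT mTEClo (SD, n = 3 each), with an interaction of -1.38. Dsg1a, a desmosomal adhesion protein, averaged 157 ± 8.68 CPM in KO mTEChi and 147 ± 5.22 in WT mTEChi, against 31.3 ± 3.95 CPM in KO mTEClo and 81.1 ± 3.41 in WT mTEClo, with an interaction of 1.47. Of 19 genes of cortical epithelium, Cxcl12, Il7, Scx and Ctsl were positive and Kitl, Ccl25 and Pax9 negative. Scx, the transcription factor scleraxis, averaged 5.95 ± 1.13 CPM in KO mTEChi and 8.51 ± 1.07 in WT mTEChi, against 21.6 ± 3.19 CPM in KO mTEClo and 115 ± 5.31 in WT mTEClo, with an interaction of 1.90. Of 19 genes of the unfolded protein response, 5 were negative and 1 (Herpud1) positive. The 5 became 3 without KO mTEChi 5, KO mTEClo 6 or WT mTEClo 3, and no positive call was left without KO mTEChi 4 or WT mTEChi 3. Asns, asparagine synthetase, was called higher in mTEClo alone, with an interaction of -1.14.

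Some of these counts depended on the libraries fitted together and on depth. With the 12 mTEC libraries alone, the positive calls numbered 7 for MHC class II, 10 for the NF-kB pathway and 13 for tuft cell genes, and the negative calls of keratinocyte genes numbered 8. At the smallest total depth, the negative calls numbered 5 for neuroendocrine, 3 for ciliated, 1 for cholesterol synthesis, 1 for keratinocyte, 1 for unfolded protein response and 3 for chemokine genes.

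**Figure D4:**
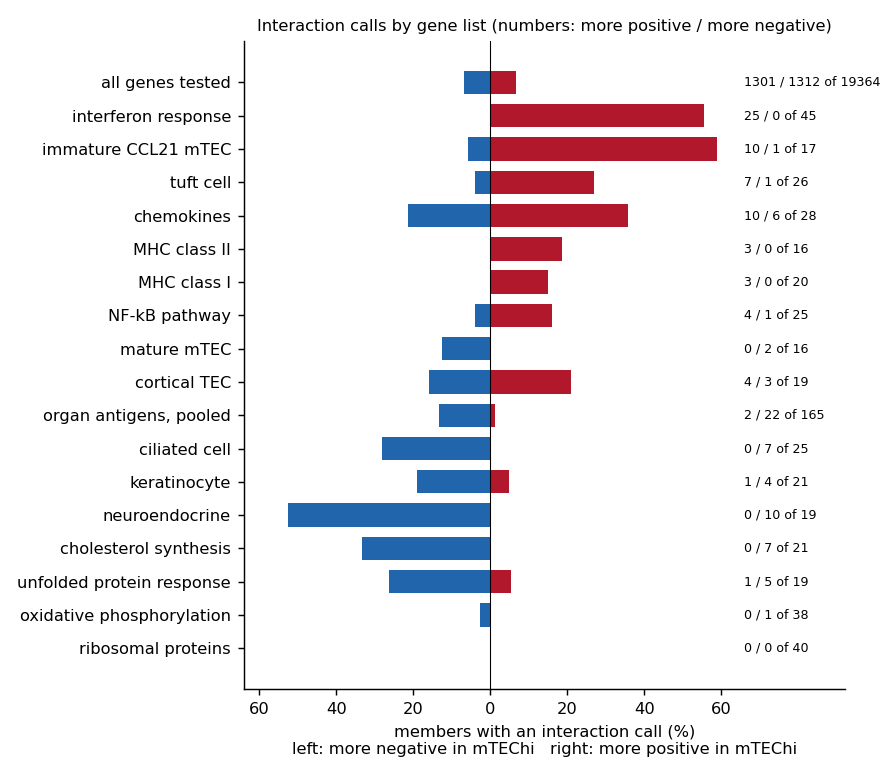
Share of tested members of each gene list drawn whose interaction was called, with negative interactions to the left and positive ones to the right of 0, and the counts at the right edge. Interferon response (25 of 45 positive) and immature mTEC genes (10 of 17 positive) reach furthest right, and neuroendocrine genes (10 of 19 negative) reach furthest left among the lists drawn, against 6.72% positive and 6.78% negative over all genes.

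Cortical thymic epithelial cells (cTEC) of the same pools gave the KO effect of the opposite genes in another population. Their values did not enter the 3 contrasts that define the classes, but the animals were the same and the cTEC libraries shared the filter, the scaling and the estimate of spread, so the counts are a description. Of the 188 genes higher in KO mTEChi and lower in KO mTEClo, 110 were lower and 18 higher in KO cTEC, against a background of 26.7% lower and 22.3% higher, with a median of -0.45. C1s1 (-2.21), Col6a1 (-2.24), Lrp1b (-2.85) and Myog (-5.67) fell in KO cTEC. Acta2 (0.59), Irgm1 (0.37) and Snai2 (0.58) rose, and Ddx58 was not called (0.10). Of the 194 genes with the reverse pattern, 86 were higher and 40 lower in KO cTEC, with a median of 0.50. Gstm1 (3.33), Dcpp3 (7.26), Ogn (1.77) and Krt15 (2.01) rose in KO cTEC, while Col1a1 (-2.07) and Csn1s1 (-5.73) fell. Over all genes tested the median KO effect in cTEC was -0.02.

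**Figure D5:**
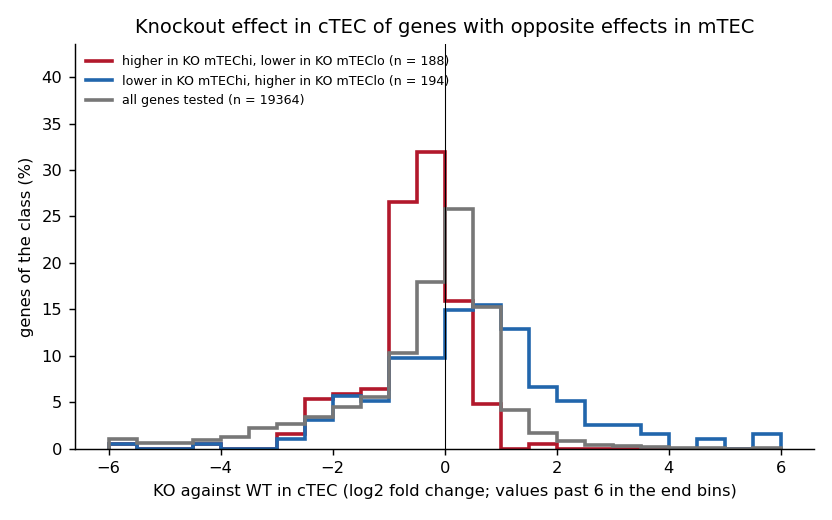
Distribution of the KO effect in cTEC (log2 fold change of KO over WT, horizontal) as the percent of genes of each class (vertical), for the 188 genes higher in KO mTEChi and lower in KO mTEClo, the 194 with the reverse pattern, and all 19364 genes tested. The first class is centred below 0 (median -0.45) and the other extends above 0 (median 0.50).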

How the data were processed

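RNA-seq was analysed in the 12 mTEChi and mTEClo libraries, with the 6 cTEC libraries in the same fit. The deposited values were raw read counts of genes, made by the authors using featureCounts on mm10, per the submitters' processing notes. The aligner is not given in the sources used here. The 18 single count files equalled the table of the series, no column was without a sample, and 1312 genes had no symbol.

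Counts were fitted in R 4.3.3 with edgeR 4.0.16 as 6 group means over 18 libraries (12 residual degrees of freedom), after filterByExpr with a minimum count of 10 and TMM scaling. Contrasts were tested by glmQLFTest with Benjamini-Hochberg adjustment at 0.05. An opposite gene had called effects of different sign in the 2 fractions and a called interaction. Ratios of mTEChi over mTEClo per pool used a pseudocount of 0.5 CPM. The code was tested on simulated data with known changes. Reads of paralogs and of overlapping antisense genes could be shared. P-values of the main fit rest on the spread between pools within groups, estimated over all 6 groups. The 18 libraries were taken as independent.

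Alternatives were RLE scaling, DESeq2 1.42.0, no filter on low counts, the 12 libraries alone, thinning to 3554089 counts, a replicate block by mouse pool, and leaving out each of the 12 libraries. The fractions are paired because the labels give them the same mouse pools. The main fit had no term for the pool, so its standard errors and p-values did not use this pairing, and only the replicate block did. Deviations of the fractions of a pool from their group means correlated at 0.0521 to 0.239 across genes, against -0.181 to 0.0577 for different pools.

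The members and the 42 gene lists (836 genes, 835 matched) were chosen with earlier results of these data known. Named genes were Kat7 and Aire, the 12 genes of each opposite class with the largest interaction, a mean of at least 5 CPM in a group and no overlap of KO and WT, the largest interactions of the other classes, and up to 4 members of each list with the smallest adjusted p. The text gives a selection of these. The 30 further genes that were chosen after their values were seen are not from that rule, among them Gstm1, Gsta3, Gstt1, Igfbp3, Krt15, Col6a1, Col6a2, Vim, Osmr, Fgfr2, Ifngr1, Snai2, Runx1, Sox4, Mx1, Rtp4, Stat2, Irf9, Gbp2, Ifit3, Zbp1, Ccl21a, Trp63, Scg3, Col1a1 and C1ra. Promoter sequences came from RefSeq, GRCm38.p6. Results for some genes are not reported here.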

Additional observations from a re-analysis of the deposited data

Results flagged for a closer look

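The KO effect differed between mTEChi and mTEClo by the test of the interaction itself for 1301 genes in the positive and 1312 in the negative direction (edgeR quasi-likelihood test, adjusted p below 0.05). Of these, 188 were higher in KO mTEChi and lower in KO mTEClo and 194 the reverse, so those 382 had effects of different sign in the fractions of the same pools of mice.

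Among genes with a mean of at least 5 CPM in a group, those of largest difference in the first direction, as log2 interactions, were Alpk2 (3.27), Tas2r109 (3.07), Lag3 (2.95), C1s1 (2.83), Des (2.83), Sectm1a (2.79), Cpxm2 (2.66), Lrp1b (2.60), Myog (2.54), Prss33 (2.53), C1rl (2.52) and Kremen2 (2.49). In the reverse direction they were Dcpp3 (-9.08), Ntrk2 (-7.01), Ogn (-6.93), Dcpp2 (-6.51), Unc13c (-6.17), Sult1e1 (-5.57), Gcm2 (-5.36), Capn8 (-5.07), Nell1 (-4.94), Itih1 (-4.72) and Wfdc12 (-4.65). Each had KO and WT libraries that did not overlap in either fraction, as the rule that named them required. For Dcpp3, KO mTEClo libraries spread from 6.83 to 34.6 CPM, and WT mTEClo averaged 2.56 CPM or less for each of these 11 genes. Groups of 3 libraries are too small for a check of single outlying libraries.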

How the results depend on the processing

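All 181 named genes with a called interaction kept their direction under the 18 alternatives (17 for Igkv8-19 and Myh8), and 106 also kept their call under each, while 75 lost it under at least 1. The 1301 positive interactions became 2482 with the 12 mTEC libraries alone (1635 negative), 659 with libraries thinned to the smallest total, and 659 when an absolute log2 interaction of at least 1 was asked for (971 negative). The 1312 negative ones became 395 when thinned. Leaving out 1 library gave 950 to 1284 positive and 910 to 1275 negative calls. The genes higher in KO mTEChi and lower in KO mTEClo numbered 188, and 363 with the 12 libraries alone, 71 when thinned, 59 with a fold of at least 1.5 asked for in both fractions, and 120 to 188 with 1 library left out, lowest without WT mTEChi replicate 3. The reverse class numbered 194, and 293 with the 12 libraries alone, 45 when thinned and 130 to 175 with 1 left out. When thinned, 8 genes of the first class were higher and 103 lower in KO cTEC, against 18 and 110, and 62 of the reverse class were higher and 26 lower, against 86 and 40. With the replicate block by mouse pool there were 1546 positive and 1568 negative calls; it ended the calls of Bcl11b, Cryba4 and Rspo3 and of no other named gene. RLE scaling gave 1308 and 1309 calls, DESeq2 1506 and 1557, and no filter on low counts 1419 and 1150. Thinning removed reads and so calls, and turned 8 of the called genes round; the cause of the other moves was not tested. Depth and the small number of pools limit these values.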

Other observations

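Small gene families with shared patterns were seen after their values were known and carry no test. Of 11 Ifi200 family genes, nucleic acid sensors induced by interferon, 5 had a positive interaction with a median of 1.00. Of these, Ifi202b, Ifi203 and Ifi204 were higher in KO mTEChi and lower in KO mTEClo. Ifi204 had 40.9, 44.2 and 35.5 CPM in KO mTEChi against 18.3, 18.5 and 18.3 CPM in WT mTEChi, and 40.1, 38.2 and 38.7 CPM in KO mTEClo against 69.2, 70.8 and 64.8 CPM in WT mTEClo. All KO libraries of both fractions thus lay between the WT mTEChi and the WT mTEClo libraries. Of 6 Schlafen genes tested, 3 had a positive interaction, and Slfn5 and Slfn8 were of the opposite class. Collagen genes were split, with 8 positive and 11 negative among 44 tested. Carboxylesterases of the Ces1 family, whose copies are similar in sequence, had 5 negative and 1 positive among 8 tested, with a median of -2.84. For all these families the background was 6.72% positive and 6.78% negative interactions.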
